A study of Mus musculus with 9 samples.

Results

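Long intergenic noncoding RNAs (lincRNA) are transcripts that lie between protein-coding genes and code for no protein. In the later of 2 deposited expression tables, 5559 of 54532 listed genes carried the biotype lincRNA. The 262 described here were those with a mean of at least 1 FPKM (fragments per kilobase of gene length, scaled to the depth of the library) over all 9 samples, leaving out the imprinted genes Meg3, Rian, Mirg, H19, Peg13, Kcnq1ot1 and Airn. They were thus chosen by their FPKM levels, which are given as a description. Just inside the minimum stood Gm10754 at 1.01, Gm49064 at 1.01 and 1500015L24Rik at 1.00 FPKM. Just outside it stood Gm36899 at 0.994, Gm12525 at 0.987 and Gm44644 at 0.977 FPKM. Of all lincRNA listed, 2693 were listed at 0 in all 9 samples.

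RNA was sequenced from the hippocampus of C57BL/6 mice in 3 groups of 3 samples. The mice were labelled male, were bought at 6 to 8 weeks of age and were kept 2 per cage. The study describes female mice, and Con and HMD only, so methods taken from it may not hold for every library here. Con mice were fed standard chow. HMD mice were fed chow high in methionine over 8 weeks. Bet+HMD mice had the HMD regimen first, and 2.5% (w/v) betaine was then added to their drinking water for 2 weeks. A high-methionine diet raises homocysteine, and betaine gives a methyl group that turns homocysteine back into methionine. No group carried an introduced allele, and no group received betaine without the diet. The strain labels of the 3 Bet+HMD samples end in different numbers, whereas the growth description names C57BL/6 for all. The Y-linked gene Ddx3y was present in every sample, at 12.7 to 21.2 FPKM, and Xist stayed between 0 and 0.0449 FPKM. Nothing states whether the 3 samples of a group were single animals, so p-values measure the spread between samples, which may be partly technical.

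LincRNA act in several ways. Some stay in the nucleus and build or occupy nuclear bodies, some are host transcripts whose introns or exons release microRNA (miRNA) or small nucleolar RNA (snoRNA), some bind miRNA, and some regulate a neighbouring gene by being transcribed beside it. In the brain many are restricted to neurons or to developing neural tissue.

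The sequence of a few lincRNA shows what these roles rest on. The first set gives the mature miRNA of host lincRNA whose values are described further on, as RefSeq gives them for GRCm38.p6, with the seed (bases 2 to 8), the part that pairs with target RNA, in capitals. The same miR-9-5p comes from 3 genes, each inside a different lincRNA: Mir9-1 in Gm3764 (mature sequence at chr3:88215613-88215635, plus strand), Mir9-2 in C130071C03Rik (chr13:83738821-83738843, plus strand) and Mir9-3 in Mir9-3hg (chr7:79505279-79505301, plus strand). The miR-101a, miR-374b and miR-138 genes lie in E130102H24Rik, Ftx and C78859.
mmu-miR-9-5p: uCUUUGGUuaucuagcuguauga
mmu-miR-9-3p: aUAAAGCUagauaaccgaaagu
mmu-miR-101a-3p: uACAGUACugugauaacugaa
mmu-miR-374b-5p: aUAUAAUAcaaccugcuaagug
mmu-miR-138-5p: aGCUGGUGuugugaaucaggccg
No seed among these 5 is shared with another of them.

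The second set shows 1700020I14Rik, also known as Cyrano, which carries a site for miR-7 with pairing far beyond the seed and is known to direct the destruction of that miRNA. In its longest GENCODE M21 transcript of 8300 bases the site spans bases 2935 to 2959. Capitals mark the 13 and 8 bases that pair without a gap with miR-7a-5p, whose own seed is in capitals in the second line.
1700020I14Rik: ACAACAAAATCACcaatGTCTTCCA
mmu-miR-7a-5p: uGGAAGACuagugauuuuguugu
A match to the 7-base seed alone was present in the longest transcript of 52 of the 262 lincRNA and is therefore common.

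The third set shows the nuclear RNA Malat1 and Miat. Near its 3′ end Malat1 holds U-rich runs and an A-rich tract, which fold into a triple helix that protects the RNA. They are in capitals in bases 6598 to 6691 of its 6983-base transcript. No other of the 262 longest transcripts held all 3 runs in these letters. The runs searched for follow the letters of Malat1, so similar elements with other letters were not looked for. Miat carries repeats of the letters TACTAAC (a splicing branch point motif that the splicing factor Sf1 binds), 6 of them in 9163 bases. The 3 that lie closest together, within bases 4936 to 5077, are in capitals. The motif, read on the transcript strand, occurred in 12 of the 262 longest transcripts (4.58%), and 1 of these, Miat, held more than 2 copies.
Malat1: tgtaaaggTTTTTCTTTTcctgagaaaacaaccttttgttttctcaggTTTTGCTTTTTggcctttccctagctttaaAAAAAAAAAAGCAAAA
Miat: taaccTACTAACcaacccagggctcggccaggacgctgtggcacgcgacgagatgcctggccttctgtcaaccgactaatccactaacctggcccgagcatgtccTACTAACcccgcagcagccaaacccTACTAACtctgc

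The 262 lincRNA were mostly weakly expressed. Their median level was 2.00 FPKM, against 6.77 FPKM for protein-coding genes at or over the same minimum. There were 132 under 2 FPKM and 16 at or over 10 FPKM. Gene length ran from 138 to 24030 bases with a median of 1637, and 47 had transcripts of 1 exon only. All 262 were found in GENCODE M21, 254 of them with the same start and end. In the table's coordinates 148 overlapped no other listed gene, 80 overlapped a gene on the opposite strand and 41 overlapped a protein-coding gene. The study's methods name a stranded kit for Con and HMD, but whether reads were counted by strand is not given in the sources used here, so the values of overlapping lincRNA are uncertain.

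The highest member in every sample was 2900097C17Rik (chr2:156388065-156392979), whose role is not established. It stood at 284, 335 and 302 FPKM in Con, at 296, 369 and 268 FPKM in HMD, and at 276, 269 and 290 FPKM in Bet+HMD. The groups overlapped, and Bet+HMD differed from HMD by -0.15 ± 0.12 (log2, SE) with an adjusted p of 0.344. Next came 6330403K07Rik, 1700020I14Rik, Malat1, 3300002P13Rik, Miat, 2900052N01Rik, B230209E15Rik, Mir124a-1hg and Gm10076. The 10 members with most reads held between 66.3% and 70.9% of the lincRNA reads of a sample.

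Depth was alike in all samples, with 16031464 to 18291952 assigned reads. The Bet+HMD libraries stood apart from the other 6 in several ways. Genes with at least 1 read numbered 25315 to 25663, against 20816 to 23272 in Con and HMD. Nuclear rRNA genes held 0.00448% ± 0.000749 of reads (SD, n = 3) in Bet+HMD, against 0.0750% ± 0.0303 for HMD and 0.0632% ± 0.0437 for Con. Ribosomal protein genes held 0.515% ± 0.0409, 0.976% ± 0.0937 and 1.10% ± 0.257, in the same order. The median coefficient of variation of the lincRNA was 14.1% in Bet+HMD, against 25.9% for HMD and 25.7% for Con. Since Bet+HMD samples occur in the later table only, betaine and any other difference in how these libraries were made cannot be told apart in the comparisons below. Of the marker genes for neighbouring tissue, 5 thalamus genes summed to 18.0 to 50.1 FPKM in HMD, 9.90 to 12.5 in Con and 13.0 to 13.6 in Bet+HMD, and 5 blood genes to 149 to 233 FPKM, 99.8 to 148 and 72.2 to 122. The 5 striatum genes summed to 18.7 to 27.2 FPKM in HMD, above Con (10.5 to 14.3) and Bet+HMD (14.7 to 17.3). The 6 microglia genes summed to 75.5 to 80.8 FPKM in Bet+HMD, below HMD (84.1 to 99.2) and Con (100.1 to 124), and the 4 endothelium genes to 32.5 to 34.2, below 37.1 to 38.4 and 42.0 to 44.1. The 6 neuron genes summed to 1273 to 1551 FPKM over all samples, and the sums for hippocampal neurons, astrocytes, oligodendrocytes and choroid plexus overlapped between Bet+HMD and HMD. The part of tissue composition in the lincRNA values was not tested.

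The share of reads in lincRNA showed the same division of the samples. In Con, lincRNA took 0.421%, 0.436% and 0.439% of assigned reads, and in HMD 0.402%, 0.475% and 0.407%. In Bet+HMD they took 0.698%, 0.692% and 0.716%. Con and HMD overlapped, and all Bet+HMD samples lay above all others. The share is a description, since the same levels chose the lincRNA. In the 182 lincRNA with a mean of at least 1 FPKM in each group it was 0.407% to 0.424% in Con, 0.388% to 0.460% in HMD and 0.641% to 0.666% in Bet+HMD. In a bulk sample, more cells that express a lincRNA and more RNA per cell cannot be told apart.

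**Figure D1:**
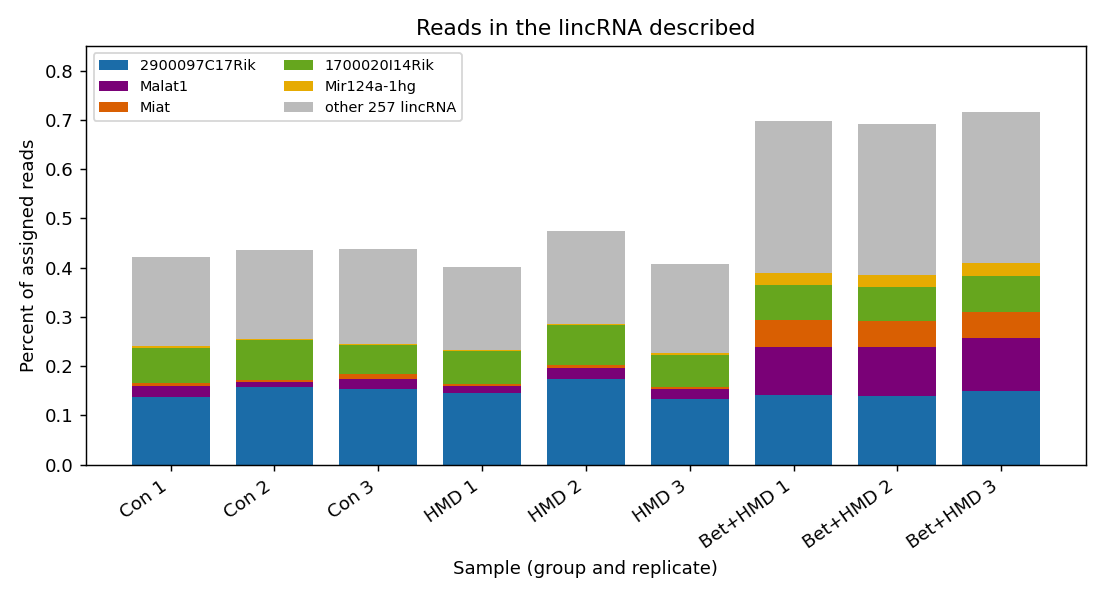
Each bar is 1 sample, and its height is the percent of assigned reads that fell in the 262 lincRNA, split by the 5 lincRNA named in the legend and the other 257. The 3 Bet+HMD bars reach 0.692% to 0.716%, above all Con and HMD bars, while the 2900097C17Rik part keeps a similar height in all 9.

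A few nuclear and neuronal lincRNA made up most of the added reads in Bet+HMD over HMD. Malat1 gave 30.2% of the net rise, Miat 17.5%, Mir124a-1hg 7.87%, C230004F18Rik 6.16%, Gm3764 4.81% and Neat1 4.18%. Of these, C230004F18Rik lies outside the naming rule, was chosen after its values were seen and overlaps Cdr1. The share without Malat1 was still 0.600% ± 0.00742 in Bet+HMD, against 0.408% ± 0.0382 in HMD and 0.414% ± 0.0133 in Con (SD, n = 3 each). The 5294 lincRNA under the FPKM minimum took 0.0873% ± 0.000604, 0.0435% ± 0.00124 and 0.0452% ± 0.00507 of reads in the same order.

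To ask which lincRNA the methionine diet changed, HMD was compared with Con. Of the 262 lincRNA, 214 passed the filter of a mean of 1 FPKM over these 6 samples, and none was called higher or lower at an adjusted p under 0.05 by limma, where 0% of all 13004 genes tested were called (0 also by limma voom on reads). The smallest adjusted p of a lincRNA was 0.453. At an unadjusted p under 0.05 stood 24 lincRNA (11.2%), against 4.52% of all genes. In 31 lincRNA the HMD and Con samples did not overlap, which was 14.5% of those tested against 9.61% of all genes. Medians of the log2 fold change lay at -0.02 (lincRNA) and -0.01 (all genes). The lincRNA named next did not pass the test and are given by their values. They were chosen by their HMD and Con values, and the same HMD samples serve again in Bet+HMD against HMD. The choice favours a move back in Bet+HMD, so the adjusted p-values of that comparison are given for these lincRNA as a description.

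The lowest p belonged to Gm44421 (chr6:90478466-90479686), which begins 3228 bases downstream of Klf15, a transcription factor gene induced by glucocorticoids, on the same strand. It stood at 3.53, 2.78 and 3.26 FPKM in Con and at 5.14, 6.20 and 6.06 FPKM in HMD, with no overlap (log2 fold change 0.70 ± 0.12, adjusted p = 0.453). Klf15 itself had a mean of 13.6 FPKM in HMD and 9.47 FPKM in Con (adjusted p = 0.750). In Bet+HMD, Gm44421 stood at 3.68, 3.33 and 2.54 FPKM, below all HMD samples (-0.71 ± 0.13, adjusted p = 0.00343), and Klf15 at 8.23 FPKM (adjusted p = 0.000889 against HMD). Reads that run on from Klf15 and reads that start in Gm44421 cannot be told apart in gene totals.

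Gm43848, 120 bases downstream of Rap1a on the same strand, stood at 2.53, 2.77 and 3.05 FPKM in Con and 3.83, 4.24 and 4.99 in HMD (0.50 ± 0.13, adjusted p = 0.877), and fell to 2.31, 1.86 and 2.67 in Bet+HMD (adjusted p = 0.00364 against HMD). Rap1a fell as well, from a mean of 23.8 FPKM in HMD to 14.6 in Bet+HMD (adjusted p = 0.000564), but was at -0.09 in HMD against Con. Here too, reads that run on from the coding gene cannot be told apart. Gm44718 stood at 0.489 to 0.859 FPKM in Con and 1.64 to 2.64 in HMD (0.86 ± 0.18, adjusted p = 0.747). Lower in all HMD samples were C030018K13Rik at 0.529 to 1.07 FPKM against 1.89 to 2.34 in Con (-0.77 ± 0.17, adjusted p = 0.747), Gm43672 at 2.09 to 2.73 against 3.67 to 3.99 (-0.50 ± 0.12, adjusted p = 0.774) and 2900052N01Rik at 17.2 to 17.7 against 21.7 to 24.1 (-0.38 ± 0.10, adjusted p = 0.877). C030018K13Rik and 2900052N01Rik were higher in every Bet+HMD sample than in every HMD sample, by 1.27 ± 0.16 (adjusted p = 0.000889) and 0.54 ± 0.07 (adjusted p = 0.0011). Gm44718 did not pass against HMD, at -0.43. Gm43672 did not move back, at 0.07 against HMD and -0.43 against Con.

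To ask how lincRNA levels stood after betaine, the Bet+HMD samples were set against each of the other groups. Both comparisons use the same 3 Bet+HMD samples and are therefore not independent. Against HMD, 253 lincRNA were tested, and 105 were called higher and 23 lower, while 125 did not pass. That was 50.6% of the lincRNA called, where 48.3% of all 13672 genes were called. The directions were unlike those of all genes: 41.5% of lincRNA were higher against 22.8% of all genes, and 9.09% were lower against 25.5%. In the middle of the distribution lincRNA lay at a log2 fold change of 0.41 (median), all genes at -0.03 and protein-coding genes at -0.06. Rescaling to TPM moved the all-gene median by more than 0.1, to 0.16, with 132 lincRNA higher and 18 lower, and quantile normalization gave 89 and 35.

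Against Con, 256 lincRNA were tested, and 108 were higher and 22 lower (50.8% called, against 39.7% of 13643 genes). The higher ones were 42.2% against 19.4% of all genes, and the lower ones 8.59% against 20.4%. The median was 0.35, against -0.04 for all genes. TPM gave 124 higher and 13 lower, and quantile normalization 93 and 34. With a log2 fold change of at least 1 as well, 52 lincRNA were higher and 4 lower than in HMD, where 6.14% and 2.79% of all genes were, and 51 and 5 against Con, where 5.77% and 2.97% were. Samples of the compared groups did not overlap in 149 lincRNA against HMD (58.9%, all genes 60.1%) and in 158 against Con (61.7%, all genes 55.1%). The 253 and 256 tested are not all lincRNA of the series: 33 of the 262 lay under 1 FPKM in both Con and HMD and so entered through their Bet+HMD level. Among the 182 with at least 1 FPKM in each group, 63 were higher and 16 lower than in HMD (median 0.27), and 63 and 17 against Con (median 0.20).

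**Figure D2:**
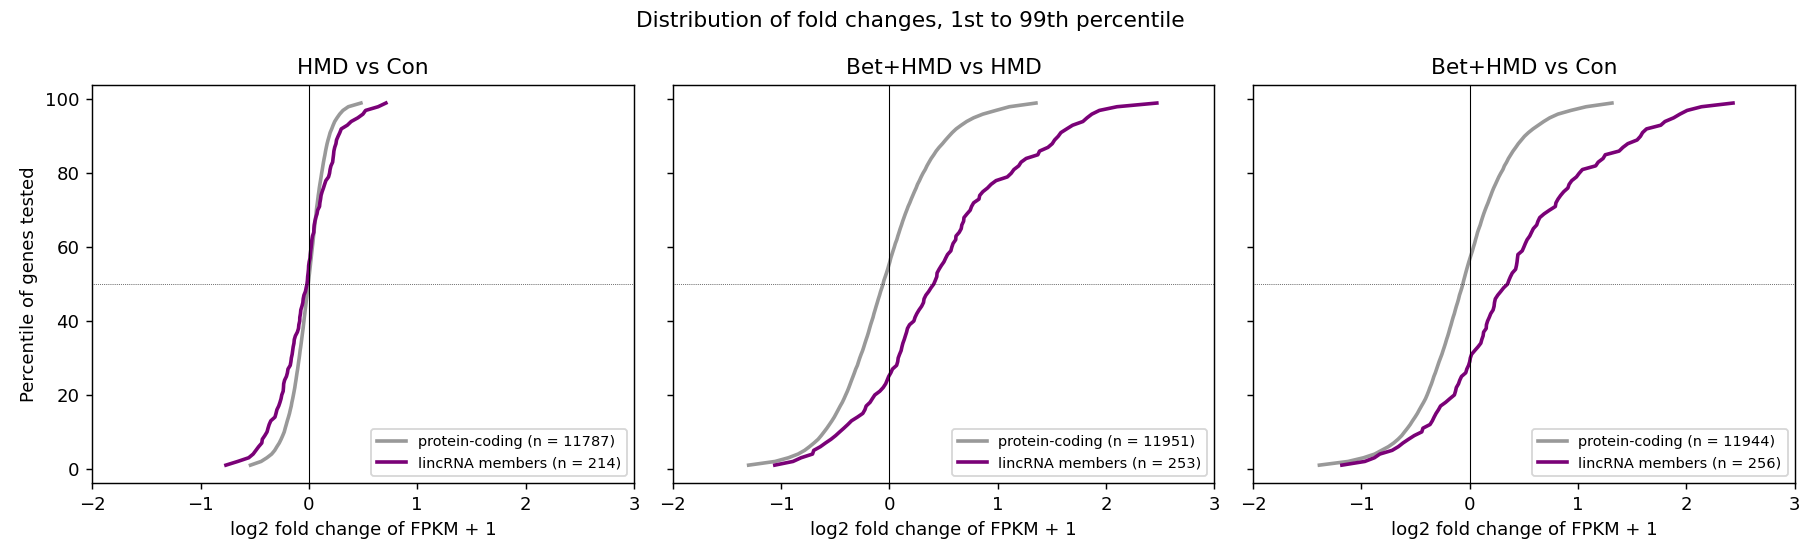
Percentile of genes tested (vertical axis) against log2 fold change of FPKM + 1 (horizontal axis) in each comparison, for protein-coding genes in grey and the lincRNA in purple. The curves cross the 50th percentile at -0.01 and -0.02 in HMD against Con, and at -0.06 and 0.41 in Bet+HMD against HMD, where the lincRNA curve lies to the right over most of its height.

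All 3 lincRNA described here that are on the list of nuclear RNA (Malat1, Miat and Neat1) were higher in Bet+HMD than in either other group. Of 6 genes tested on that list, of any biotype, 5 were higher and 0 lower in each comparison. Of all genes 22.8% and 19.4% were higher than in HMD and Con, and of the lincRNA tested 41.5% and 42.2%. Malat1 (chr19:5795690-5802672), a highly expressed RNA of nuclear speckles whose 3′ triple helix is shown above, stood at 31.4, 15.8 and 29.6 FPKM in Con, at 23.0, 33.8 and 28.9 in HMD and at 134, 136 and 150 in Bet+HMD. Every Bet+HMD sample lay above every other sample. The log2 fold change was 2.27 ± 0.14 against HMD (adjusted p = 5.44e-05) and 2.46 ± 0.24 against Con (adjusted p = 0.000671).

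Miat (chr5:112213228-112229395), a nuclear RNA of neurons with the TACTAAC repeats shown above, had the largest log2 fold change of the lincRNA tested in both Bet+HMD comparisons. It stood at 7.20, 4.27 and 10.3 FPKM in Con, at 4.12, 6.82 and 4.90 in HMD and at 56.1, 53.6 and 53.2 in Bet+HMD. The Bet+HMD samples lay close together and far from the rest (3.16 ± 0.15 against HMD, adjusted p = 2.76e-05, and 2.81 ± 0.25 against Con, adjusted p = 0.000499). Neat1 (chr19:5824708-5845478), the scaffold of the nuclear bodies called paraspeckles, stood at 0.745, 0.579 and 2.26 FPKM in Con, at 0.768, 0.820 and 1.04 in HMD and at 6.23, 5.97 and 6.08 in Bet+HMD (1.92 ± 0.09, adjusted p = 3.06e-05, and 1.77 ± 0.26, adjusted p = 0.00263). The Bet+HMD samples of Neat1 were all above the highest Con sample.

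Lists of proteins that act with such RNA are set beside all genes, of which 22.8% were higher and 25.5% lower than in HMD, and 19.4% and 20.4% against Con. Among 11 paraspeckle proteins, 7 were higher and 1 lower in Bet+HMD than in HMD (median 0.38), and 5 and 1 against Con. Among 18 genes of the nuclear RNA exosome and its adaptors, which degrade nuclear RNA, 7 were higher and 4 lower than in HMD and 4 and 4 against Con, with medians of 0.08 and -0.07. Among 24 genes of Integrator and of 3′ processing of noncoding transcripts, 5 were higher and 5 lower than in HMD, close to the shares of all genes, and 5 and 3 against Con. None of these was called in HMD against Con.

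LincRNA of the X-inactivation centre were divided. Ftx (chrX:103560907-103623754), a positive regulator of Xist that hosts miR-374b and miR-421 in its introns, stood at 2.10, 1.45 and 1.45 FPKM in Con, at 1.24, 2.16 and 1.92 in HMD and at 10.7, 10.5 and 11.2 in Bet+HMD, with no overlap (2.10 ± 0.13, adjusted p = 6.24e-05, and 2.15 ± 0.11, adjusted p = 0.000131). Jpx, an activator of Xist, stood at 1.17 to 1.87 FPKM in HMD and 1.38 to 1.77 in Bet+HMD (0.11 ± 0.14, adjusted p = 0.557). Against Con, at 0.812 to 1.21 FPKM, Jpx was at 0.39 ± 0.13 with an adjusted p of 0.0494. It rose to between 0.0712 and 0.160 without any one Bet+HMD sample, to 0.0946 without Con replicate 2 and to 0.0811 without Con replicate 3. The call was also lost with quantile normalization (0.12, adjusted p = 0.510), the replicate block (0.123) and no filter (0.0981). A pseudocount of 0.1 gave 0.0556, and all 3 groups in one fit gave 0.0551. Of 12 proteins that act with Xist, 4 were higher and 1 lower than in HMD, where 22.8% and 25.5% of all genes were, and 3 and 2 against Con, where 19.4% and 20.4% were.

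**Figure D3:**
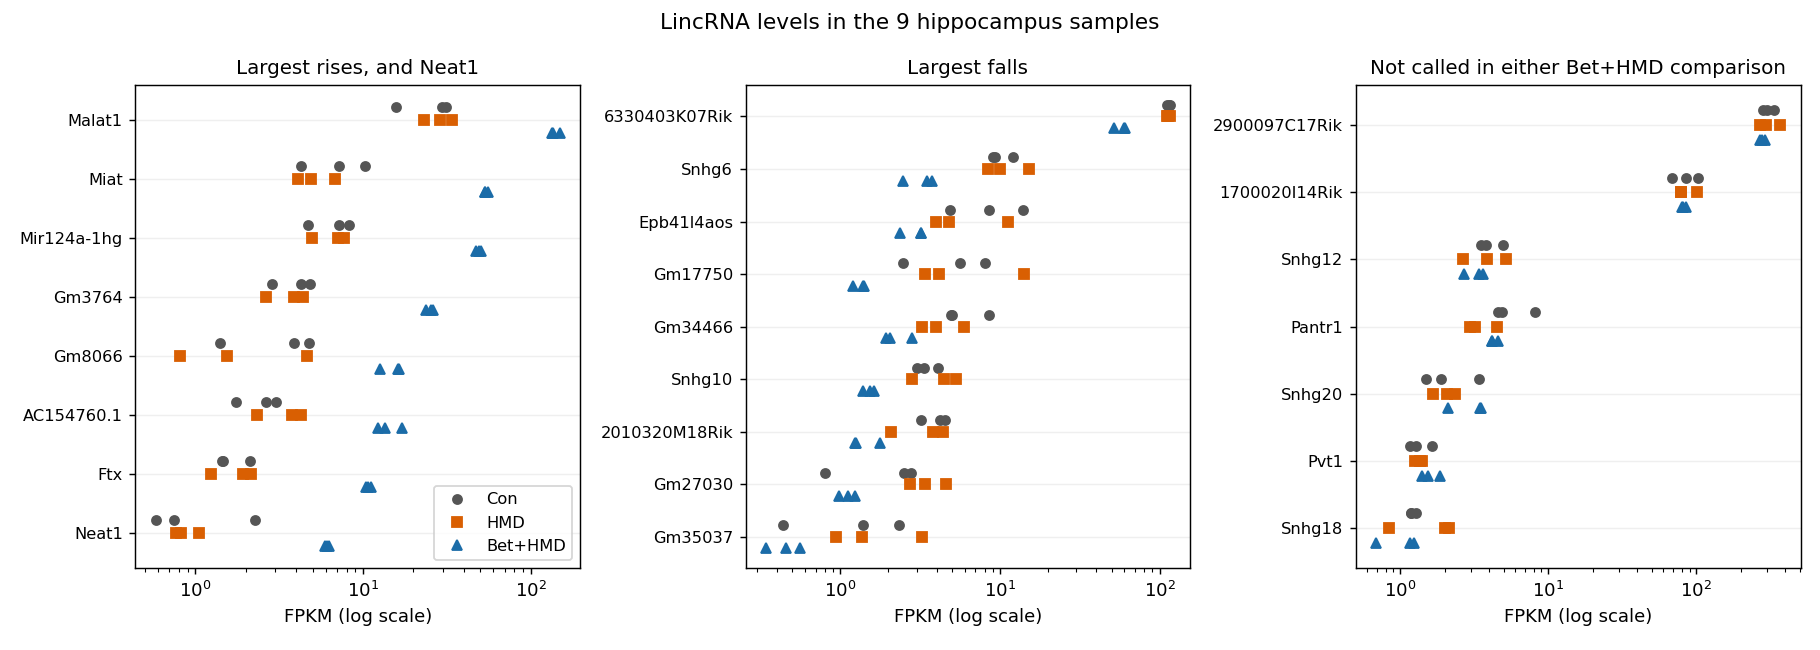
Level of each named lincRNA in FPKM (log axis) in every sample, with Con as circles, HMD as squares and Bet+HMD as triangles, for the largest rises and Neat1, the largest falls, and 7 lincRNA called in neither Bet+HMD comparison. In the left panel all Bet+HMD points lie to the right of the Con and HMD points, and the Con and HMD points overlap for most lincRNA.

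Host lincRNA of miRNA were mostly higher in Bet+HMD. Of 15 lincRNA that contain a miRNA gene on their own strand, 12 were higher and 1 lower than in HMD (median 0.69), and 12 and 1 against Con (median 0.97), while none was called in HMD against Con. One of the 12, A230057D06Rik, had to be higher, because it reached the FPKM minimum through Bet+HMD only. The share of all genes called higher was 22.8% and 19.4%. The lower one was Snhg10 in both. Mir124a-1hg (chr14:64587331-64593961), the host of Mir124a-1, whose miRNA is among the most abundant in neurons, stood at 8.23, 4.67 and 7.22 FPKM in Con, at 4.98, 7.06 and 7.65 in HMD and at 47.3, 49.2 and 50.8 in Bet+HMD. The Bet+HMD samples were again apart from all others (2.74 ± 0.14, adjusted p = 3.36e-05, and 2.73 ± 0.18, adjusted p = 0.000213). The host of Mir124a-2, Mir124-2hg, rose less, from 4.78, 4.42 and 4.74 FPKM in HMD to 8.04, 7.91 and 8.29 (0.69 ± 0.07, adjusted p = 0.00035).

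The 3 hosts of miR-9, a miRNA of neural progenitors and neurons, were all higher, by unequal amounts. Gm3764 (chr3:88206813-88229959) stood at 4.27, 2.88 and 4.83 FPKM in Con, at 2.63, 3.85 and 4.41 in HMD and at 26.1, 25.4 and 23.7 in Bet+HMD (2.51 ± 0.14, adjusted p = 5.05e-05 against HMD). C130071C03Rik stood at 7.03, 8.84 and 6.78 FPKM in HMD and at 12.7, 11.9 and 13.5 in Bet+HMD (0.69 ± 0.11, adjusted p = 0.00191). Mir9-3hg stood at 5.54, 5.04 and 6.20 FPKM and at 8.31, 7.55 and 7.38 (0.41 ± 0.09, adjusted p = 0.00896). In none of the 3 did the Bet+HMD and HMD samples overlap. Against Con the log2 fold changes were 2.40 ± 0.15, 0.36 ± 0.08 and 0.52 ± 0.09 (adjusted p = 0.000213, 0.0141 and 0.00392). For C130071C03Rik that adjusted p was 0.0612 without Bet+HMD replicate 1 and 0.0693 without Bet+HMD replicate 3.

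Promoters of the lincRNA, whatever their change, were searched for 5 motifs on both strands in RefSeq windows of 300 bases, from 250 before the start. Of the 262 lincRNA, 111 had such a window. The cyclic AMP response element TGACGTCA occurred in 7 of these 111 (6.31%) and in 549 of 27025 genes (2.03%). Of the 39 with a window that were higher in Bet+HMD than in HMD 4 held it, and of the 15 lower ones 0. It was present in Gm3764 and Mir9-3hg and is in capitals in their windows, shown because both host the same miRNA (GRCm38.p6, plus strand, chr3:88214232-88214531 and chr7:79499776-79500075). The other window of Mir9-3hg and the windows of the remaining miR-9 host, C130071C03Rik, did not hold these letters. The Gm3764 window lies inside the gene bounds of the table. The other motifs were CACGTG in 9 of the 111 (8.11%, all genes 8.09%), TATAAA in 16 (14.4%, all genes 15.7%), TGACTCA in 4 (3.60%, all genes 5.95%) and the NRF1 site GCGCATGCGC in 2 (1.80%, all genes 1.07%).
Gm3764: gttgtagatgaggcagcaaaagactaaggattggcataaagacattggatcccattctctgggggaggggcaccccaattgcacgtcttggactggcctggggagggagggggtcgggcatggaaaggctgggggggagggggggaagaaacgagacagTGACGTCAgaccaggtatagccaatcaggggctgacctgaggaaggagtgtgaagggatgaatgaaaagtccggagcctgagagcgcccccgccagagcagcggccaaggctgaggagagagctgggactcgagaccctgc
Mir9-3hg: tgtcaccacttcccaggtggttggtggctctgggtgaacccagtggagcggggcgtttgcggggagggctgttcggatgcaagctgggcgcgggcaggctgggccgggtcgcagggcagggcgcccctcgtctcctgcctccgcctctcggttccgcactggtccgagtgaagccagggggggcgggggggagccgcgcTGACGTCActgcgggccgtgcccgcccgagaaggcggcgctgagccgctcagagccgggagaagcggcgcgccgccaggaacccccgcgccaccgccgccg

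Further miRNA hosts lay outside the naming rule and were chosen after their values were seen. C78859, which contains Mir138-2, stood at 1.37, 2.32 and 1.23 FPKM in HMD and 9.39, 8.87 and 9.04 in Bet+HMD (1.96 ± 0.15, adjusted p = 0.000127). E130102H24Rik, which contains Mir101a, stood at 2.26, 3.48 and 1.87 FPKM and 10.1, 8.99 and 10.5 (1.64 ± 0.16, adjusted p = 0.000327). A230057D06Rik, which spans a cluster of Mir344 genes, stood at 0.340, 0.735 and 0.636 FPKM and 4.70, 4.79 and 4.62, and passed the FPKM minimum only through Bet+HMD, so that its direction was fixed and no test is given. Bet+HMD did not overlap the other groups in any of these. The hosts that did not pass against HMD were Snhg20 at 1.67 to 2.33 FPKM and 2.12 to 3.52 (0.40 ± 0.17, adjusted p = 0.0884) and 6720427I07Rik, which contains Mirlet7d, at 1.95 to 2.81 and 2.95 to 3.40 (0.32 ± 0.12, adjusted p = 0.0538).

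**Figure D4:**
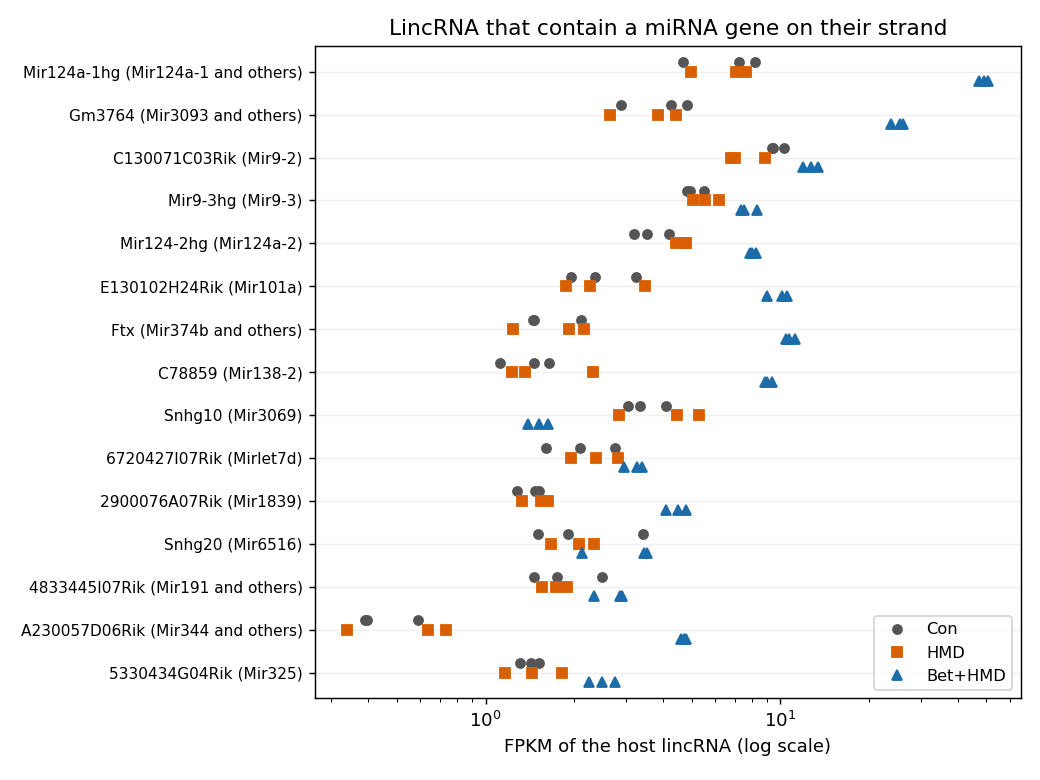
Level in FPKM (log axis) of the 15 lincRNA that contain a miRNA gene on their strand, with the first such gene in brackets, in every Con (circle), HMD (square) and Bet+HMD (triangle) sample. Bet+HMD points lie to the right of all HMD points in most rows and to the left of them in the row of Snhg10.

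Host lincRNA of snoRNA were called in both directions. These transcripts are spliced to release snoRNA, guides of ribosomal RNA modification, and the spliced remainder is usually short-lived. Of the 9 lincRNA that contain a snoRNA gene on their own strand, 2 were higher and 2 lower of 8 tested against HMD, and 2 and 3 of 9 against Con, where 22.8% and 25.5%, and 19.4% and 20.4%, of all genes were. The 2 higher ones were 2900076A07Rik (1.13 against HMD, adjusted p = 0.000195) and Gm26945, which overlaps Rian, lies under 1 FPKM in Con and HMD and so passed the filter through its Bet+HMD level. Both are named after their values were seen. Of 14 genes on the list of known hosts tested against HMD, of any biotype, 3 were higher and 4 lower. Of the 6 on that list among the lincRNA described, 0 were higher and 2 lower in Bet+HMD than in HMD, and 0 and 3 against Con. Snhg6 (chr1:9941959-9944118), the host of Snord87, stood at 8.97, 12.1 and 9.34 FPKM in Con, at 9.99, 15.1 and 8.37 in HMD and at 3.47, 3.75 and 2.46 in Bet+HMD, with no overlap (-1.50 ± 0.21, adjusted p = 0.00129, and -1.40 ± 0.16, adjusted p = 0.001). It overlaps the coding gene Mcmdc2. Snhg10 stood at 2.83, 5.30 and 4.48 FPKM in HMD and at 1.52, 1.39 and 1.63 in Bet+HMD (-1.02 ± 0.18, adjusted p = 0.00346, and -0.83 ± 0.12 against Con, adjusted p = 0.00215). Its nearest coding gene Glrx5, 409 bases away on the other strand, fell alongside, at -1.03 against HMD (adjusted p = 0.000886) and -0.98 against Con (adjusted p = 0.00309). Epb41l4aos fell against Con, from 8.49, 4.88 and 13.9 FPKM to 3.21, 2.37 and 3.21 (-1.27 ± 0.31, adjusted p = 0.0185), and that adjusted p lay between 0.0502 and 0.0667 without Con replicate 1 or any one Bet+HMD sample. Snhg12 stood at 2.66 to 5.15 FPKM in HMD and 2.70 to 3.65 in Bet+HMD (-0.17 ± 0.19, adjusted p = 0.489), and Snhg18 at 0.837 to 2.15 and 0.685 to 1.24 (-0.37 ± 0.23, adjusted p = 0.233).

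The fall of greatest weight was that of 6330403K07Rik (chr11:71031941-71033513), the second most expressed lincRNA. It stood at 111, 115 and 116 FPKM in Con, at 111, 114 and 117 in HMD and at 61.1, 59.7 and 52.0 in Bet+HMD. The Con and HMD samples were nearly equal and all Bet+HMD samples lay far below (-0.97 ± 0.08, adjusted p = 0.000166, and -0.97 ± 0.09, adjusted p = 0.00059). Gm17750 had the lowest log2 fold change against HMD, from 3.37, 14.1 and 4.14 FPKM to 1.20, 1.39 and 1.41 (-1.58 ± 0.42, adjusted p = 0.0189). Its spread in HMD was wide, and its adjusted p was 0.0518 to 0.0568 without any one Bet+HMD sample. Against Con it was at -1.35 ± 0.32 (adjusted p = 0.0168), and at 0.0509 to 0.0587 without Con replicate 1 or any one Bet+HMD sample. Gm27030, which overlaps Gm20388 on its strand, fell from 2.73, 3.38 and 4.59 FPKM to 1.24, 0.975 and 1.11 (-1.10 ± 0.16, adjusted p = 0.00144). Gm35037 fell from 1.36, 3.22 and 0.936 FPKM to 0.455, 0.559 and 0.341 (-0.89 ± 0.28, adjusted p = 0.0344), with an adjusted p of 0.0586 to 0.0959 without HMD replicate 1 or any one Bet+HMD sample, and it fell under the filter without HMD replicate 2. Its adjusted p was also 0.0816 without a filter, 0.0603 with all 3 groups in one fit and 0.0647 with voom. Against Con, Gm34466 fell from 4.93, 5.01 and 8.57 FPKM to 2.05, 2.80 and 1.93 (-1.11 ± 0.21, adjusted p = 0.00649). 2010320M18Rik fell from 4.49, 3.18 and 4.23 FPKM to 1.77, 1.23 and 1.25 (-1.04 ± 0.15, adjusted p = 0.00221). Neither group pair overlapped.

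On the list of noncoding RNA of neural development and neurons, 9 of 12 tested were higher than in HMD and 7 of 12 against Con, with 0 lower in either. Of all genes 22.8% and 19.4% were higher, and of the lincRNA tested 41.5% and 42.2%. Among them, 4 of 6 lincRNA described here were higher and 0 lower in both Bet+HMD comparisons, and the 4 were Miat, Neat1, C130071C03Rik and Gm26917. Miat and Neat1 were also counted on the list of nuclear RNA, and C130071C03Rik among the miRNA hosts. Whether Gm26917 has a role in neurons was not tested. Gm26917 (chr17:39843013-39846341) stood at 1.56, 1.63 and 1.67 FPKM in HMD and 6.54, 5.32 and 5.80 in Bet+HMD (1.39 ± 0.09, adjusted p = 8.12e-05). Pantr1, whose start lies 926 bases from the neuronal transcription factor gene Pou3f3 on the other strand, stood at 3.20, 2.97 and 4.54 FPKM and at 4.18, 4.55 and 4.16 (0.23 ± 0.13, adjusted p = 0.197). 1700020I14Rik (Cyrano), with the miR-7 site shown above, stood at 84.8, 103 and 68.4 FPKM in Con, at 79.4, 102 and 78.3 in HMD and at 81.3, 80.0 and 85.7 in Bet+HMD. Its groups overlapped, with a log2 fold change of -0.06 ± 0.11 against HMD (adjusted p = 0.684), but under quantile normalization it was called higher, at 0.32 (adjusted p = 0.0451). Pvt1, the neighbour of Myc, stood at 1.26 to 1.41 FPKM in HMD and 1.41 to 1.86 in Bet+HMD (0.15 ± 0.12, adjusted p = 0.312).

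Further large rises belonged to lincRNA without an established role. Gm8066, which overlaps Epo on the opposite strand, stood at 1.54, 0.807 and 4.64 FPKM in HMD and at 12.7, 16.1 and 16.3 in Bet+HMD (2.43 ± 0.38, adjusted p = 0.00194), with 6 to 38 reads in HMD. AC154760.1 stood at 2.63, 1.74 and 3.04 FPKM in Con, at 4.28, 2.33 and 3.78 in HMD and at a mean of 14.3 ± 2.43 in Bet+HMD (SD, n = 3), with no overlap (2.14 ± 0.17 against Con, adjusted p = 0.000381). It begins 1279 bases downstream of Uggt2 on the same strand, and Uggt2 moved the same way, from 1.69 FPKM in Con to 5.54 FPKM in Bet+HMD (log2 fold change 1.28, adjusted p = 0.00021). The remaining highly expressed lincRNA moved less or varied within groups. B230209E15Rik stood at 15.9, 24.2 and 13.3 FPKM in HMD and 29.2, 27.1 and 29.2 in Bet+HMD (0.69 ± 0.19, adjusted p = 0.0218), with an adjusted p of 0.0526 to 0.0716 without HMD replicate 1 or any one Bet+HMD sample. 3300002P13Rik stood at 27.5, 31.1 and 43.4 FPKM and 49.7, 49.5 and 42.2, with overlap (0.48 ± 0.16, adjusted p = 0.045), and its adjusted p was 0.0612 to 0.127 without HMD replicate 1 or 2 or any one Bet+HMD sample. Gm10076 stood at 26.8 and 19.4 FPKM in the first and second Bet+HMD samples and at 1.05 FPKM in the third, against 10.8 to 35.5 FPKM in HMD (-0.75 ± 0.97, adjusted p = 0.548).

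The block between Ndn and Ube3a on chromosome 7, an imprinted region, held 4 lincRNA of the set, and all 4 were called higher in both Bet+HMD comparisons. Called higher than in HMD and Con were 22.8% and 19.4% of all genes, and 41.5% and 42.2% of the lincRNA tested. For A230057D06Rik and Gm9801 that direction was fixed, since both lay under 1 FPKM in Con and HMD and passed the minimum through their Bet+HMD level. B230209E15Rik is described above. The others were A230006K03Rik, from 1.19, 2.16 and 0.981 FPKM in HMD to 4.85, 5.27 and 5.51 (1.37 ± 0.17, adjusted p = 0.000831), and Gm9801, at 0.191, 0.195 and 0.334 FPKM in HMD and 3.21, 3.02 and 3.77 in Bet+HMD. Levels of Ndn and Snrpn, the coding genes nearest to B230209E15Rik and A230006K03Rik, went the other way. These genes lie 731242 and 987777 bases away, and a relation between neighbours was not tested here. Ndn, the nearest to B230209E15Rik, fell from 58.6 ± 1.74 FPKM in HMD to 17.5 ± 0.756 in Bet+HMD (SD, n = 3 each, adjusted p = 1.57e-05), and Snrpn was at a log2 fold change of -0.71. A230006K03Rik, Gm9801, Ndn and Snrpn lie outside the naming rule and were chosen after their values were seen.

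The gene structure and surroundings of the lincRNA were compared with the changes. Of the lincRNA with 4 or more exons, 46 of 79 tested were higher and 4 lower than in HMD (median 0.62). Of those with 1 exon, 12 of 46 were higher and 6 lower (median 0.07), and the direction was the same against Con (medians 0.49 and 0.22). Those with 2 or 3 exons had 47 higher and 13 lower of 128 (median 0.39), and a median of 0.23 against Con. Of all genes 22.8% were higher and 25.5% lower than in HMD, and 19.4% and 20.4% against Con. The 33 lincRNA that entered through their Bet+HMD level were not left out of these counts. Those that overlap no listed gene had 49 higher and 14 lower of 140 against HMD (median 0.32), and 52 and 14 of 142 against Con (median 0.22). The log2 fold change of a lincRNA had little relation to that of its nearest protein-coding gene with all positions pooled, with Pearson r from 0.05 to 0.08 in the 3 comparisons (n = 165, 202 and 203). Positions differed in sign. In Bet+HMD against HMD and Con, r was 0.37 and 0.39 upstream on the same strand (n = 36 and 37). For divergent pairs it was -0.28 and -0.23 (n = 73 and 72), and for overlapping and convergent pairs between -0.08 and 0.03. Among lincRNA that begin within 5000 bases downstream of a coding gene on the same strand, r was 0.55 in HMD against Con (n = 22), 0.62 in Bet+HMD against HMD (n = 23) and 0.62 against Con (n = 23). Without the pair whose coding gene rose most (Gm44421 with Klf15, and AC154760.1 with Uggt2 in both Bet+HMD comparisons), r fell to 0.37, 0.46 and 0.41. These are descriptions across genes, which share the same libraries, and the Bet+HMD comparisons share samples with each other and with HMD against Con.

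**Figure D5:**
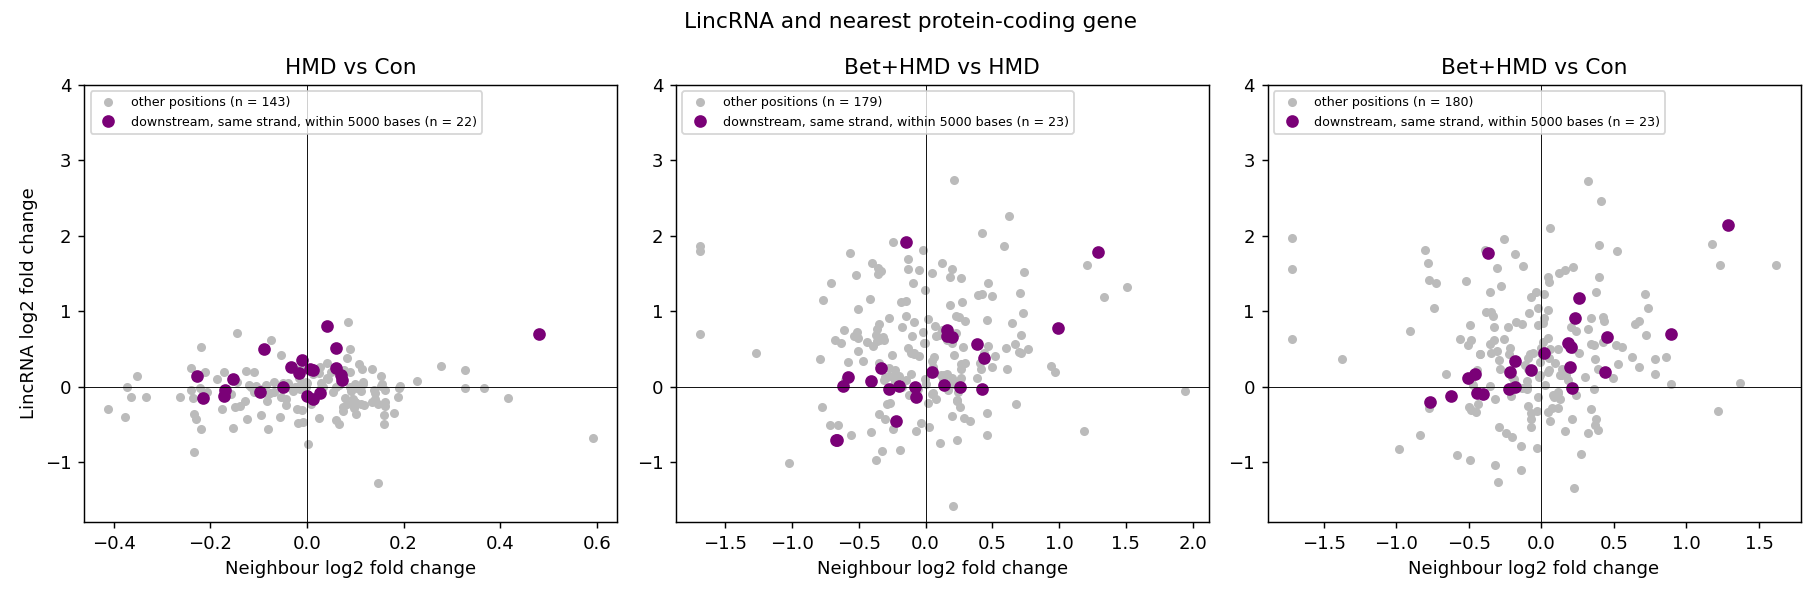
Log2 fold change of each lincRNA (vertical axis) against that of its nearest protein-coding gene (horizontal axis, scaled separately in each panel), with lincRNA within 5000 bases downstream on the same strand in purple and all others in grey. The purple points rise from left to right in each panel, with r of 0.55, 0.62 and 0.62, and Gm44421 with Klf15 is the purple point farthest to the right in HMD against Con.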

How the data were processed

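The lincRNA and the gene lists were chosen with earlier results of these data known. Per the methods of the study, hippocampal RNA of Con and HMD mice (there described as female, in the labels as male) was depleted of rRNA and sequenced from stranded libraries. HISAT2 (version 2.1.0), featureCounts (version 1.5.0-p3) and mm10 are named in the submitters' processing notes. The authors deposited FPKM values in 2 tables, an earlier one of Con and HMD and a later one of all 9 samples, and the later one was used. Its columns headed COL were taken as Con. Every value was a whole number of reads within 0.05 reads, so reads were recovered. Genes with a mean of at least 1 FPKM over the samples compared were tested on log2(FPKM + 1) with limma (version 3.58.1, R 4.3.3), with Benjamini-Hochberg adjustment over all genes tested and a threshold of 0.05. Fold changes on this scale understate changes of low genes. Errors beside fold changes are SE. Shares of reads are given without a test. No replicates agreed within sampling noise, so none was merged. Fits were tested on simulated data. Alternatives were other pseudocounts, filters, scalings, voom on recovered reads, a replicate block and leaving out each sample.

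LincRNA named with values were the 10 of highest mean, those on the lists, the 6 called with the largest rises and the 6 with the largest falls in each comparison among those without overlap between groups (with none called, the 3 of smallest p in each direction), and the 3 on each side of the FPKM minimum. Others are said to be chosen later. Mature miRNA and promoter sequences come from RefSeq (GRCm38.p6) and transcripts from GENCODE M21.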

Additional observations from a re-analysis of the deposited data

How the results depend on the processing

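The excess of higher over lower lincRNA calls in Bet+HMD kept its direction in every alternative run, and HMD against Con gave 0 calls among lincRNA in each. Against HMD, the median log2 fold change was 0.588 with a pseudocount of 0.1, 0.703 with TPM, 0.239 with quantile normalization and 0.683 with voom on reads. Against Con the same alternatives gave 0.505, 0.667, 0.169 and 0.600. Lower calls numbered 15 without a filter, 35 with quantile normalization and 15 with voom against HMD, and 14, 34 and 11 against Con, where TPM gave 13. With a filter at 5 FPKM there were 25 higher and 3 lower (median 0.569) against HMD and 22 and 3 (median 0.387) against Con. Among lincRNA that overlap no other gene there were 49 and 14 (0.321), and 52 and 14 (0.222). Among those with at least 1 FPKM in each group 63 were higher in both comparisons (0.268 and 0.198). As a share of summed FPKM, Bet+HMD exceeded HMD by 0.239 and Con by 0.236 percentage points. Without 1 sample at a time, lower calls ranged from 13 to 23 against HMD and from 11 to 22 against Con.

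1700020I14Rik turned from -0.06 to 0.32 (adjusted p = 0.0451) against HMD with quantile normalization. Calls lost included those of B230209E15Rik and Gm17750 against HMD without a filter (adjusted p = 0.0573 and 0.0553). Against Con, C130071C03Rik lost its call with the replicate block (adjusted p = 0.0509) and Epb41l4aos with voom (adjusted p = 0.0502). The cause was not tested in any of these. The replicate numbers were not used as pairs in the main fits. To look for pairing, each sample was taken as its deviation from the mean of its own group, gene by gene. In same-numbered samples these deviations correlated at -0.0581, 0.337 and 0.320 (HMD and Con). For Bet+HMD the values were 0.0171, -0.102 and -0.151 (with HMD) and -0.0489, -0.0902 and -0.176 (with Con). Replicates 2 and 3 in HMD and Con, and replicate 1 in Bet+HMD and HMD, matched their own number best. With 3 samples per group these values cannot settle whether the numbers pair. With the replicate block 106 were higher and 23 lower against HMD, 96 and 18 against Con, and 0 and 0 in HMD against Con. Weakly expressed lincRNA, with 132 under 2 FPKM, limit what could be detected.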
